A study of Mus musculus with 11 samples.

Results

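The genes described here are the transporters, water channels and sodium channels that a finished kidney tubule uses to recover salt, water and solutes from the filtrate. They were chosen by symbol: the numbered members of the Slc4a, Slc5a, Slc12a, Slc13a, Slc22a (without Slc22a18) and Slc34a families, the aquaporins Aqp1 to Aqp12, the subunit genes Scnn1a, Scnn1b and Scnn1g of the epithelial sodium channel, and Umod, Lrp2 and Cubn. This gave 79 of 21887 protein-coding genes, of which 78 had an RNA row by accession. Slc34a2 had none, and its RNA was not analysed here. No gene with the symbol Aqp0 or Aqp10 was among the gene positions.

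Histone marks were mapped in 3 mouse populations and RNA was measured in 2 dissected tissues, with 1 sample in each group. Cap mesenchyme, the nephron progenitors, was Cited1-RFP+, with the genotype Cited1nuc-TagRFP-T, at E18.5; the line began as (C57BL/6 x DBA)F1 and was then kept on C57BL/6J. Ureteric epithelium, the branching tube that forms the collecting ducts, was Hoxb7-GFP+, with the genotype Hoxb7myr-Venus/+, at E15.5, and this line began as (C57BL/6J x CBA/J)F2 and was likewise kept on C57BL/6J. The third population was the wild-type 129/Ola embryonic stem (ES) cell line E14 at passage 15. The RNA samples were E11.5 metanephric mesenchyme and E11.5 ureteric bud (ureteric epithelium in the labels), both dissected manually from C57BL/6 wild-type animals. Both reporters mark cells by 1 gene's activity, and the dissected tissues were not sorted. The marks and the RNA therefore differ in stage, strain and purity, and with 1 sample per group no difference below has a replicate check or a p-value.

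A nephron takes up most of the filtered phosphate, glucose, bicarbonate and organic solutes in its proximal tubule. The thick ascending limb and distal convoluted tubule then remove salt, and the collecting duct sets the final water and sodium content through aquaporins and the epithelial sodium channel. Proximal tubule, limb and distal tubule all descend from cap mesenchyme, whereas the collecting duct descends from ureteric epithelium. H3K4me3 is a histone mark of promoters open to transcription, and H3K27me3 is the mark left by Polycomb repressive complexes.

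Marker genes of the populations gave the following. All 6 nephron progenitor markers (Six2, Cited1, Eya1, Osr1, Wt1 and Gdnf) carried H3K4me3 in cap mesenchyme and also in ureteric epithelium, and H3K27me3 lay at 0 of them in cap mesenchyme and at 3 in ureteric epithelium. Of 6 ureteric markers, 4 carried H3K4me3 in cap mesenchyme and 5 in ureteric epithelium, and H3K27me3 lay at 4 and 3 of them in the same order. H3K4me3 lay in ureteric epithelium but not cap mesenchyme at 2 of the 6 and the other way at 1. That 1 was Hoxb7, the gene named in the ureteric reporter, which carried neither mark in ureteric epithelium. Markers of other cells were also marked: H3K4me3 lay in cap mesenchyme but not ureteric epithelium at 3 of 5 podocyte genes (Nphs1 and Ptpro among them), and in ureteric epithelium but not cap mesenchyme at 4 of 5 endothelial genes. Of 6 genes of differentiating nephrons, 5 carried it in both kidney populations, while Hnf4a, a regulator of proximal tubule genes, carried neither mark in any population and was listed at 0 FPKM in both tissues. In the RNA, all 4 stroma markers were 4-fold higher in metanephric mesenchyme, where they summed to 138.9 FPKM, against 0.998 FPKM in ureteric bud. The same held for 3 of 5 endothelial genes (sums of 28.2 and 2.89 FPKM) and 5 of 6 nephron progenitor markers. Cited1 went the other way, at 2.78 FPKM in metanephric mesenchyme and 8.35 FPKM in ureteric bud. The part of podocyte, stroma, endothelial or other cells in the results below was not tested.

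Promoter sequences of 8 genes are shown because the presence of H3K4me3 at the members went with their content of CpG, the cytosine-guanine step that is dense at many broadly active promoters. Each is 300 bases, from 250 before the start to 50 after it, taken from RefSeq on GRCm38.p6 (mm10), 5′ to 3′ on the strand of the gene, with every CpG in capitals. Slc34a1 (chr13:55399398-55399697, plus strand), Slc22a6 (chr19:8617746-8618045, plus), Cubn (chr2:13491827-13492126, minus) and Aqp1 (chr6:55336049-55336348, plus) are proximal tubule genes with H3K4me3 in cap mesenchyme but not ureteric epithelium. Lrp2 (chr2:69585980-69586279, minus) and Scnn1g (chr7:121734229-121734528, plus) had it in both. Umod (chr7:119479213-119479512, minus) and Aqp2 (chr15:99578806-99579105, plus) had it in neither.
Slc34a1: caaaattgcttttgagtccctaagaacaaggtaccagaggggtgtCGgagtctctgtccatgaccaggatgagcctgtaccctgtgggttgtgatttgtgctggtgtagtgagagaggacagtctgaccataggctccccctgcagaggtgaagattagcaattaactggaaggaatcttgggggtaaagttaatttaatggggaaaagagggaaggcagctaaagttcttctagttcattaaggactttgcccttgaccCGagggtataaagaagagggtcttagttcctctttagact
Slc22a6: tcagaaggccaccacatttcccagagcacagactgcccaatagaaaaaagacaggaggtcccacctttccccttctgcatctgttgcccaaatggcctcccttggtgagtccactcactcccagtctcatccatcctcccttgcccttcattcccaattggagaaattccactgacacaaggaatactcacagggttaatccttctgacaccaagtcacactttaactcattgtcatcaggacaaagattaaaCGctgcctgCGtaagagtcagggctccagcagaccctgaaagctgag
Cubn: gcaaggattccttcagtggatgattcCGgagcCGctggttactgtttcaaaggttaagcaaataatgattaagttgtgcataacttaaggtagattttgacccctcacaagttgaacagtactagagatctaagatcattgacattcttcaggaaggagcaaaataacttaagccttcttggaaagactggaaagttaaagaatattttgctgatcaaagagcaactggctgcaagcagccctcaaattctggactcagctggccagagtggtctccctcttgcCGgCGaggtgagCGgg
Aqp1: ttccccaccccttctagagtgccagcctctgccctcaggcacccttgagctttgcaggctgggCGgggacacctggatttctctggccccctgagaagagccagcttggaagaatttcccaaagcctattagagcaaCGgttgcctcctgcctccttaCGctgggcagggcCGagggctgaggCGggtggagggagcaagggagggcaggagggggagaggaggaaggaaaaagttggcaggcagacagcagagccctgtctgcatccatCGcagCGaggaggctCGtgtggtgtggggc
Lrp2: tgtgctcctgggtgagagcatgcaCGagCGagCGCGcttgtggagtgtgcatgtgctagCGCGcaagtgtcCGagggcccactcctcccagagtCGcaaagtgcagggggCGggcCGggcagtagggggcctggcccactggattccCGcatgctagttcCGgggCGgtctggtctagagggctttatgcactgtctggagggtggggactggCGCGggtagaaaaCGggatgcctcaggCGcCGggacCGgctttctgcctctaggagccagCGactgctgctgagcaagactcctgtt
Scnn1g: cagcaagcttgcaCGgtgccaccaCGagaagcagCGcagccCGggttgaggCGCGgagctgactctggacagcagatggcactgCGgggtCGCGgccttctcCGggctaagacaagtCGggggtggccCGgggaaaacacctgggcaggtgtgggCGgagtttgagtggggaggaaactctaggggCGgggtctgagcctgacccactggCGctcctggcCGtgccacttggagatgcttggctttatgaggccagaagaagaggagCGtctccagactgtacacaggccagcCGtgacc
Umod: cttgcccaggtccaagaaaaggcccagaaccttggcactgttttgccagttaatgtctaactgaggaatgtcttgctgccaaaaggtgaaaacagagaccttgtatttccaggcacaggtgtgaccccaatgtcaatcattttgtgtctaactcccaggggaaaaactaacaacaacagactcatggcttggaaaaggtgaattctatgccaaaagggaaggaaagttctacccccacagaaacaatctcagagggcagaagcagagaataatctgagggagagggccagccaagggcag
Aqp2: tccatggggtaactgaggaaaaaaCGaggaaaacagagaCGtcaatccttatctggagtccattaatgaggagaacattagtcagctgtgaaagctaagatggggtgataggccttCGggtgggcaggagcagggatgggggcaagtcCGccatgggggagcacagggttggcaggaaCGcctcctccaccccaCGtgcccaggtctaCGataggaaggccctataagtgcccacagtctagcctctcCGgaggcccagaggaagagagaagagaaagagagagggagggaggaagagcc
The capitals number 2 in Slc34a1, 2 in Slc22a6, 5 in Cubn and 8 in Aqp1, against 20 in Lrp2 and 18 in Scnn1g. Umod held 0 and Aqp2 held 8.

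H3K4me3 at these genes lay more often in cap mesenchyme than in ureteric epithelium, and 7 of the 14 genes that differed were proximal tubule genes. A mark was called present where at least 1 bp of a deposited peak lay within 1 kb of the outermost annotated start. H3K4me3 was present at 47 of the 79 genes in cap mesenchyme (59.5%, against 63.6% of all protein-coding genes), at 33 in ureteric epithelium (41.8%, against 59.7%) and at 44 in ES cells (55.7%, against 67.5%). At 14 genes it was present in cap mesenchyme but not ureteric epithelium, a share of 17.7% (95% exact binomial interval 10 to 27.9, counting error over genes only) against 4.58% of all protein-coding genes. At 0 genes was it the other way round, against 0.681% of all genes. At 27 genes no population had the mark (34.2%, against 30.6%). At 8 genes cap mesenchyme alone of the 3 populations had the mark (10.1%, against 0.877%), among them Cubn, Slc22a2, Slc22a6, Slc22a12 and Slc34a1.

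**Figure D1:**
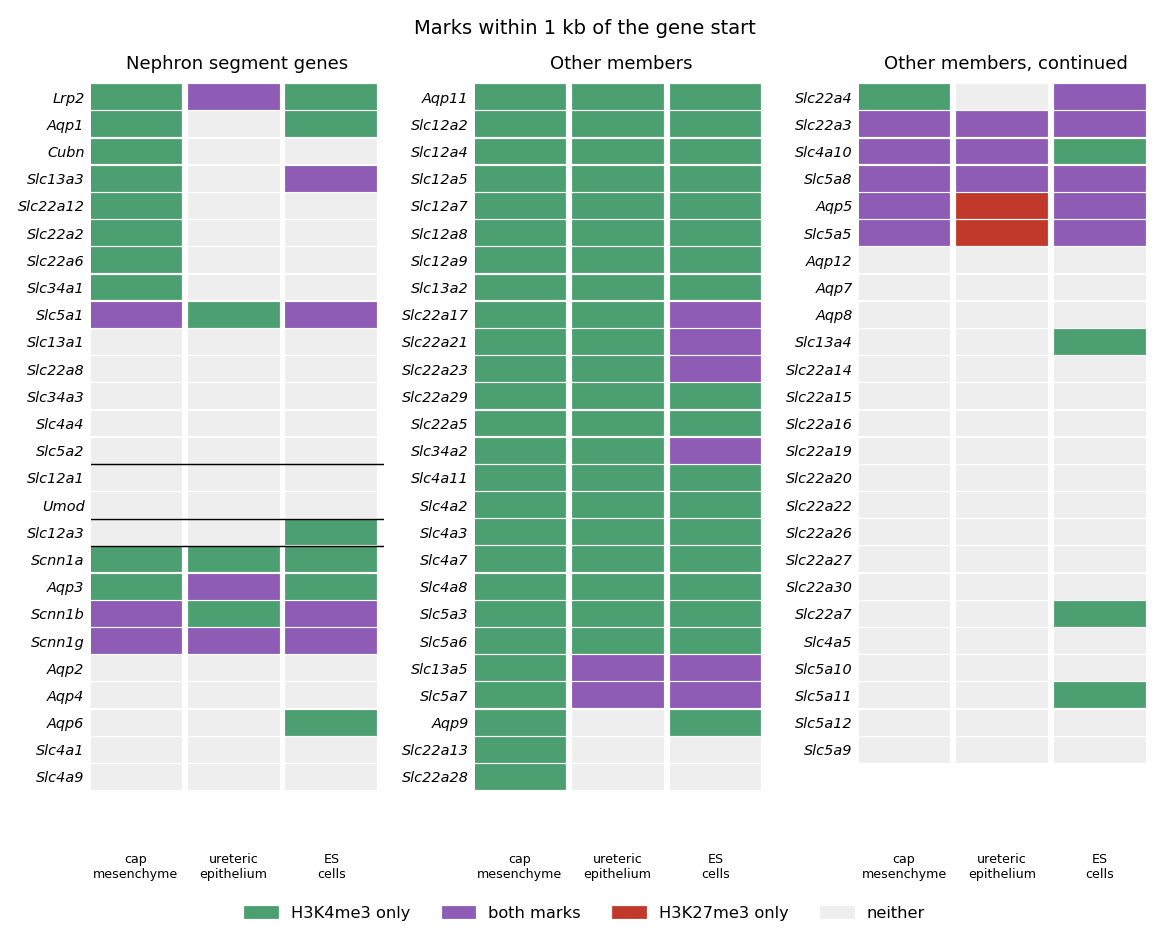
Marks within 1 kb of the start of each of 77 of the 79 genes (rows) in cap mesenchyme, ureteric epithelium and ES cells (columns), coloured by whether H3K4me3, H3K27me3, both or neither was present, 1 sample per population. Lines separate proximal tubule, thick ascending limb, distal convoluted tubule and collecting duct genes. Of the 14 proximal tubule genes 9 carry H3K4me3 in cap mesenchyme and 2 in ureteric epithelium (against 63.6% and 59.7% of all protein-coding genes).

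Of 14 proximal tubule genes, cap mesenchyme carried H3K4me3 at 9, ureteric epithelium at 2 and ES cells at 4. Of all protein-coding genes 63.6%, 59.7% and 67.5% carried it, in the same order. The cap mesenchyme share was thus near that of all genes, while those of ureteric epithelium and ES cells lay below. The counts for proximal tubule genes depend on the choice of the 14. Of members outside the list that are also known from the proximal tubule, named after their values were seen, Slc22a13 had the mark in cap mesenchyme but not ureteric epithelium, Slc13a2 and Slc5a8 had it in both, and Slc5a10, Slc5a12 and Slc22a7 had it in neither. The 7 of the 14 that carried H3K4me3 in cap mesenchyme but not ureteric epithelium covered several tasks of that segment. Slc34a1 (chr13:55399622-55414695) encodes the apical sodium phosphate cotransporter, and its peak of 1826 bp (chr13:55399592-55401417) covered the annotated start. The nearest peak of ureteric epithelium was 36.1 kb away and that of ES cells 8.79 kb away. Slc22a6 (chr19:8617996-8628299), which encodes the organic anion transporter OAT1, had a peak of 2361 bp (chr19:8617832-8620192), with the nearest peak of ureteric epithelium 22.7 kb away. Cubn (chr2:13276338-13491876), the gene of the endocytic receptor cubilin, had a peak of 2502 bp (chr2:13490051-13492552), and Aqp1 (chr6:55336299-55348555), the water channel of proximal tubule and thin descending limb, had one of 1456 bp (chr6:55335940-55337395). In ureteric epithelium the nearest peaks to these 2 starts were 51.7 and 115.2 kb away. All 4 of these peaks thus covered the start itself, and no peak of ureteric epithelium lay nearer than 22.7 kb.

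The other 3 were the urate transporter gene Slc22a12, the organic cation transporter gene Slc22a2 and the dicarboxylate transporter gene Slc13a3. Their cap mesenchyme peaks were 2703, 1235 and 1151 bp wide, and the nearest ureteric peaks lay 10.4, 51.7 and 18.9 kb away. ES cells carried H3K4me3 at Aqp1 and Slc13a3, and at Slc13a3 also H3K27me3. Lrp2 (chr2:69424335-69586029), which encodes megalin, the partner of cubilin in protein uptake, and Slc5a1, the gene of the sodium glucose cotransporter SGLT1, carried H3K4me3 in all 3 populations. The pair of receptors thus differed: the Lrp2 start was marked everywhere, with a peak of 6001 bp in cap mesenchyme and one of 2739 bp in ureteric epithelium, while Cubn was marked in cap mesenchyme alone.

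At 5 proximal tubule genes no H3K4me3 was present within 1 kb of the outermost start in any population: Slc13a1 (sulfate), Slc22a8 (the organic anion transporter OAT3), Slc34a3 (phosphate), Slc4a4 (the bicarbonate cotransporter NBCe1) and Slc5a2 (the glucose cotransporter SGLT2). For Slc22a8 and Slc4a4 this depended on which start was read. Slc22a8 lies beside Slc22a6 on chromosome 19, and a second RefSeq start 1.9 kb into the gene lay under a cap mesenchyme peak (chr19:8593092-8594644), with no ureteric or ES cell peak there. A second Slc4a4 start 93.4 kb into the gene carried both marks in all 3 populations, with H3K4me3 peaks at chr5:88886243-88888779 in cap mesenchyme, chr5:88886146-88888716 in ureteric epithelium and chr5:88886105-88888643 in ES cells.

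The thick ascending limb genes Slc12a1, which encodes the cotransporter NKCC2, and Umod, which encodes uromodulin, carried neither mark in any population. The nearest cap mesenchyme H3K4me3 peak lay 1.77 kb from the Umod start, just outside the window, and 15.4 kb from that of Slc12a1; in ureteric epithelium the distances were 162.2 and 15.6 kb. Slc12a3, the gene of the thiazide-sensitive cotransporter of the distal convoluted tubule, carried H3K4me3 in ES cells, and the nearest kidney peaks lay 56.3 kb (cap mesenchyme) and 56.7 kb (ureteric epithelium) away.

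Of 9 collecting duct genes, 4 carried H3K4me3 in cap mesenchyme and the same 4 carried it in ureteric epithelium, while 5 carried it in ES cells. The shares of all protein-coding genes were 63.6%, 59.7% and 67.5% in the same order. The 4 were Aqp3, a basolateral water channel gene, and the 3 subunit genes of the epithelial sodium channel. H3K4me3 lay in cap mesenchyme but not ureteric epithelium at 0 of 9 collecting duct genes and at 7 of 14 proximal tubule genes. Among all protein-coding genes the share was 4.58%, and 0 of 9 is near it. Both counts rest on which genes the segment lists hold. Aqp2, the vasopressin-regulated water channel gene, Aqp4 and the anion exchanger genes Slc4a1 and Slc4a9 carried neither mark in any population, and Aqp6, a channel gene of intercalated cells, had H3K4me3 in ES cells. The peak at Scnn1a, the alpha subunit gene (chr6:125314271-125344943), lay at a start within 1 kb of that of Ltbr, and the data do not assign it to either gene. Starts of 7 further members likewise lay within 1 kb of another gene: Aqp9, Slc13a5, Slc22a21, Slc34a2, Slc4a2, Slc5a3 and Slc5a6.

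**Figure D2:**
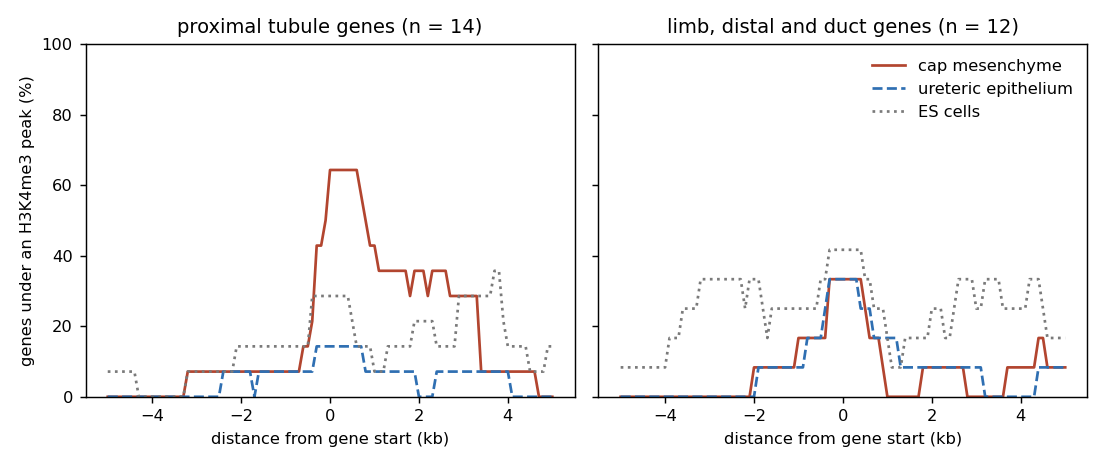
Share of genes under an H3K4me3 peak (vertical axis, %) by distance from the gene start (horizontal axis, kb, positive into the gene) for 14 proximal tubule genes (left) and 12 limb, distal tubule and collecting duct genes (right) in cap mesenchyme, ureteric epithelium and ES cells, 1 sample each. At the start the cap mesenchyme curve covers 64.3% of proximal tubule genes, the ureteric one 14.3% and that of ES cells 28.6%, while the kidney curves of the other set coincide there.

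Over the proximal tubule genes the cap mesenchyme coverage was one-sided. At the start 9 of 14 genes were covered and 1500 bp into the gene 5 were, and 1000 bp before the start 1 was. In ureteric epithelium 2 of 14 were covered at the start and 1 at 1500 bp into the gene.

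The remaining 7 members with H3K4me3 in cap mesenchyme but not ureteric epithelium were not on the proximal tubule list. Among them were Aqp5, a water channel gene of secretory glands, Aqp9, a glycerol and water channel gene of liver, the sodium iodide symporter gene Slc5a5, the organic cation transporter gene Slc22a4, as well as Slc22a13 and Slc22a28. Slc22a4 was a call at the edge of the window. Its cap mesenchyme peak (chr11:54027435-54029206) lay 0.834 kb from the outermost start, and a ureteric peak over nearly the same bases lay 1.03 kb from it, so the mark was present in both populations at the second start, 1.9 kb into the gene. The peaks at Slc22a13 and Slc22a28 were narrow (669 and 509 bp) and had scores of 60.5 and 66.7, close to the lowest score kept in that list.

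The score is the authors' value per peak, whose meaning is not stated in the sources used here, and it was used only as a rank within a list. The 14 genes marked in cap mesenchyme but not ureteric epithelium lay in the middle and lower part of the cap mesenchyme list, with a median percentile of 37.7 (range 6.76 to 69.8). The 33 genes marked in both kidney populations had a median of 69.4 (34.8 to 86.4) in the same list and of 52.4 in the ureteric list (1.79 to 90.4). Slc34a1, Slc22a6, Cubn and Aqp1 had scores of 282.6, 305, 383.1 and 190.8, all under the list's median of 449. Widths followed the same order, with medians of 1213 bp at the 14 genes and 1961 bp at the 33. On the median, the genes differing between the kidney populations were thus marked by lower-ranked and narrower peaks than the shared ones. With each H3K4me3 list held to 23958 peaks, the number in the shortest, 11 genes still had the mark in cap mesenchyme but not ureteric epithelium, against 3.4% of all genes, and Slc22a13 and Slc22a28 were among the 3 lost. The 7 proximal tubule genes kept this call under all 5 alternatives tried. Among these, the score minimum of 50 could not change it, because every H3K4me3 peak in the lists scored 50 or more. Reading any annotated start could hardly change it either. Of the 7, Slc34a1 alone had a second annotated start, 0.026 kb from the outermost one.

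H3K4me3 went with CpG content. A promoter sequence starting within 1 kb of the outermost start was at hand for 53 members. The 23 with H3K4me3 in both kidney populations held a median of 20 CpG in 300 bases (range 1 to 38), and the 19 with it in neither held a median of 3 (0 to 8). The 11 with it in cap mesenchyme but not ureteric epithelium held a median of 6 (0 to 46). Across all protein-coding genes the corresponding medians were 21, 2 and 11. Among these 11, the promoters of Slc34a1, Slc22a6, Cubn, Slc22a12, Aqp1 and Slc22a2 held 2, 2, 5, 6, 8 and 8 CpG, whereas Slc13a3, Slc5a5 and Aqp5 held 22, 29 and 46. Motif letters were searched on both strands in the same 300 bases. CAAAGTCCA, a core of the site bound by HNF4 factors, was in 0 of the 53 and in 0.417% of 17492 promoters. TATAAA was in 7 of the 53, Slc34a1 among them, and in 13.3% of promoters. No match says only that these letters are not in these windows.

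**Figure D3:**
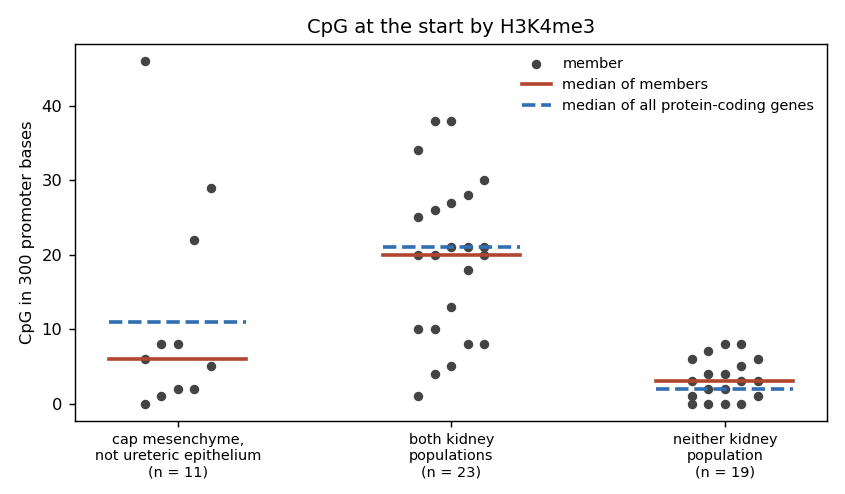
CpG number in 300 promoter bases (vertical axis) of 53 members by the kidney populations with H3K4me3 at the start. Points are genes, solid lines the members' medians (6, 20 and 3) and dashed lines the medians of all protein-coding genes (11, 21 and 2). Most genes marked in cap mesenchyme but not ureteric epithelium lie in the low range of the unmarked genes, and 3 lie above 20.

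Neighbouring paralogs did not carry the mark as blocks. On chromosome 15 Aqp2, Aqp5 and Aqp6 lie together (chr15:99579056-99605478). Of these Aqp5 alone carried H3K4me3 in a kidney population, and only in cap mesenchyme. Of 6 neighbouring Slc22a genes at chr19:7673075-8405111, Slc22a29 carried H3K4me3 in all 3 populations, Slc22a28 in cap mesenchyme, and Slc22a19, Slc22a26, Slc22a27 and Slc22a30 in none. These are close paralogs, and reads that match several of them may have been assigned differently; how the authors treated such reads is not stated in the sources used here.

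By family, 7 of 24 Slc22a genes and 3 of 11 aquaporin genes had H3K4me3 in cap mesenchyme but not ureteric epithelium, against 4.58% of all protein-coding genes. The call fell on 0 of 9 Slc12a and 0 of 10 Slc4a genes, which for sets so small is near that share. The Slc12a and Slc4a families hold the cation-chloride cotransporters and bicarbonate transporters that many cell types use. In these families 7 of 9 and 6 of 10 genes carried H3K4me3, the same number in each kidney population. Of all protein-coding genes 63.6% carried it in cap mesenchyme and 59.7% in ureteric epithelium, and for sets so small the counts are near those shares.

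H3K27me3 was present at few of these genes, at shares near those of all genes in the kidney populations. It was present at 8 genes in cap mesenchyme (10.1%, against 7.69% of all protein-coding genes), at 10 in ureteric epithelium (12.7%, against 11.0%) and at 15 in ES cells (19.0%, against 11.9%). In all, 18 genes carried it in some population, and at 16 of these the start also carried H3K4me3 in every population where H3K27me3 was found. The exceptions were Aqp5 and Slc5a5 in ureteric epithelium, which had H3K27me3 without H3K4me3 (2.53% of members, against 4.57% of all genes). Both genes had both marks in cap mesenchyme and in ES cells. Over all protein-coding genes, H3K4me3 also lay at 1287 of the 1683 starts with H3K27me3 in cap mesenchyme. In ureteric epithelium it lay at 1414 of 2415 and in ES cells at 2436 of 2598, so finding the marks together was common among all genes. The sorted populations are mixtures, so the marks at a start need not lie in the same cell.

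Aqp5, Scnn1g, Slc22a3, Slc5a5 and Slc5a8 carried H3K27me3 in all 3 populations, and Slc4a10 in both kidney populations. At Aqp5 the peaks were 1081 bp wide in cap mesenchyme and 2492 bp in ureteric epithelium and ranked at percentiles 98.7 and 99.7 of their lists. At Slc5a8, a monocarboxylate transporter gene, the kidney peaks were 265 and 777 bp wide, at percentiles 78.6 and 99.1. Scnn1g, the gamma subunit gene of the sodium channel, had a peak of 385 bp in cap mesenchyme, one of 351 bp in ureteric epithelium and one of 200 bp in ES cells, all 0.797 to 0.867 kb from the start. All 3 were narrow and lay near the edge of the window.

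H3K27me3 differed between the kidney populations at 6 genes. Scnn1b, the beta subunit gene, and Slc5a1 carried it in cap mesenchyme but not ureteric epithelium, with peaks of 281 and 176 bp at percentiles 91.9 and 60.4 (2.53% of members, against 2.28% of all genes). Aqp3, Lrp2, Slc13a5 and Slc5a7 carried it in ureteric epithelium but not cap mesenchyme (5.06%, against 5.62%). Slc13a5, a citrate transporter gene, had a ureteric peak of 1679 bp at percentile 98.6, while the peaks at Lrp2, Aqp3 and Slc5a7, the choline transporter gene, were 656, 539 and 467 bp wide at percentiles 78.5, 51.4 and 71.3. With the 1 kb window Lrp2 and Aqp3 carried H3K27me3 in the population whose tissue had the higher RNA level, as given below. Both calls were lost at equal list lengths and with peaks covering at least 50% of the window, that of Lrp2 also with a window of 0.5 kb and that of Aqp3 also with scores of at least 50. The counts changed with the settings too. With peaks covering at least 50% of the window, 0 genes had H3K27me3 in cap mesenchyme but not ureteric epithelium, and with a window of 0.5 kb, or only scores of at least 50, 2 genes had it in ureteric epithelium but not cap mesenchyme.

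In ES cells alone, H3K27me3 was present at Slc13a3, Slc22a17, Slc22a21, Slc22a23, Slc22a4 and Slc34a2, each together with H3K4me3. At 4 of them, Slc22a17 (a receptor gene for lipocalin), Slc22a21 (a carnitine transporter gene), Slc22a23 and Slc34a2 (a phosphate cotransporter gene of lung and gut), both kidney populations carried H3K4me3 only. Shares of all genes with these patterns were not computed. With a window of 0.5 kb the ES cell call of H3K27me3 was lost at Slc22a17, Slc22a23 and Slc22a4. With scores of at least 50 it was lost at Slc13a3. With at least 50% of the window covered, Slc34a2 alone of these genes kept it. Kidney H3K27me3 peaks lay just outside the window at Slc22a21 (ureteric epithelium, 1.37 kb) and Slc22a23 (cap mesenchyme, 1.36 kb).

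RNA of these genes was low in both E11.5 tissues. Levels are FPKM, fragments per kilobase of transcript and per unit of mapped fragments, as the authors deposited them and summed over the transcripts of a gene. At 1 FPKM or more were 9 of 78 genes in metanephric mesenchyme (against 46.4% of protein-coding genes) and 15 in ureteric bud (against 48.6%). At 48 genes the level was under 0.1 FPKM in both tissues (61.5%, against 34.7%), and 23 were listed at 0 in both (29.5%, against 25.3%). The sum over the 78 genes was 72.6 FPKM in metanephric mesenchyme, against 87.8 FPKM in ureteric bud.

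Apart from Scnn1g, Scnn1b and Lrp2, the genes at 1 FPKM or more in either tissue were not on the segment lists. Slc12a2, the gene of the secretory cotransporter NKCC1, was highest in metanephric mesenchyme, at 29.9 FPKM against 12.3 FPKM in ureteric bud. Its most abundant transcript (low-data status in the authors' table) stood at 16.6 FPKM (the authors' interval 13.6 to 19.7) in metanephric mesenchyme and 8.13 FPKM (6.59 to 9.67) in ureteric bud, without overlap. Slc12a2 also had the widest H3K4me3 peak of the 79 genes in cap mesenchyme, 7520 bp, and one of 3990 bp in ureteric epithelium. Slc12a7, the potassium chloride cotransporter gene KCC4, was highest in ureteric bud, with 7.91 FPKM in metanephric mesenchyme and 16.6 FPKM in ureteric bud. The anion exchanger gene Slc4a2 was at 5.23 FPKM in metanephric mesenchyme and 11.1 FPKM in ureteric bud, and had the widest H3K4me3 peak of ureteric epithelium among these genes, 5448 bp. For both, the intervals of the most abundant transcript did not overlap between the tissues and the level was higher in ureteric bud.

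Among the other genes at 1 FPKM or more, Slc4a3 (an anion exchanger gene) was at 7.50 FPKM in metanephric mesenchyme and 4.36 FPKM in ureteric bud, and Slc22a17 at 4.09 and 5.34 FPKM in the same order of tissues. Slc4a7 differed little, with 2.52 FPKM in metanephric mesenchyme and 2.32 FPKM in ureteric bud. The myo-inositol transporter gene Slc5a3 was at 3.14 FPKM in metanephric mesenchyme and 4.90 FPKM in ureteric bud, with the third widest ureteric H3K4me3 peak of these genes (3639 bp), and Slc12a4 at 2.20 and 3.48 FPKM. Slc4a8, a sodium-driven bicarbonate exchanger gene, was at 0.703 FPKM in metanephric mesenchyme and 2.77 FPKM in ureteric bud, and Slc12a9 at 0.417 and 1.35 FPKM. All 15 genes at 1 FPKM or more in either tissue were among the 32 genes with an RNA row and H3K4me3 in both kidney populations. The matching share of all protein-coding genes at that level was not computed, so this is not shown to be particular to these members. The 14 genes marked in cap mesenchyme but not ureteric epithelium stayed far lower: their highest levels were 0.132 FPKM in metanephric mesenchyme (Slc22a4) and 0.0847 FPKM in ureteric bud (Slc5a5).

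**Figure D4:**
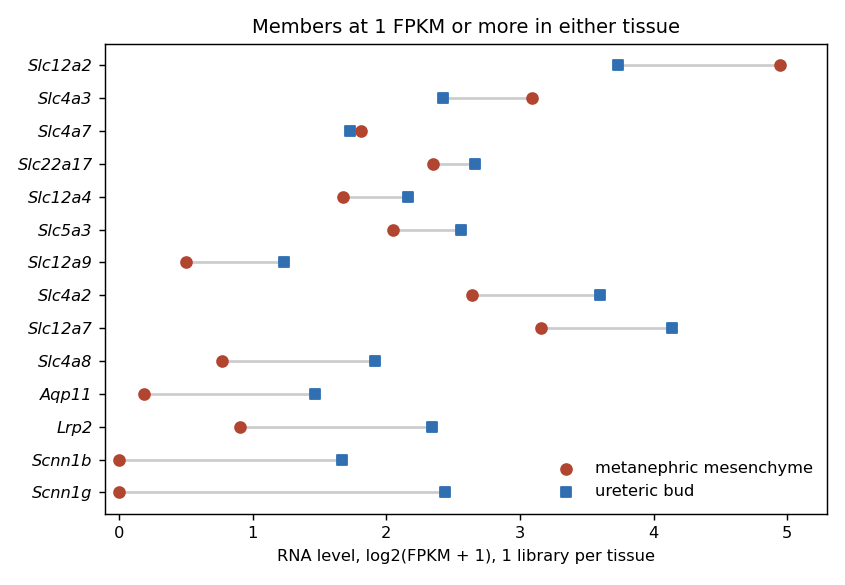
RNA level, log2(FPKM + 1), of 14 of the 15 genes at 1 FPKM or more in either tissue, in metanephric mesenchyme (circles) and ureteric bud (squares), 1 library each, ordered by the difference. 3 of those drawn lie higher in metanephric mesenchyme and 11 in ureteric bud (Slc22a17 changes sides once the median shift of all genes is removed), with Scnn1g and Scnn1b at 0 in metanephric mesenchyme.

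Tissues were compared on the scale of log2(FPKM + 1), metanephric mesenchyme minus ureteric bud, on which a change in a low gene looks smaller than it is. The limit for a 4-fold call was a difference of 2 together with 2 FPKM or more in the library with the higher level. By this rule 0 of 78 genes were higher in metanephric mesenchyme (against 0.944% of protein-coding genes) and 1 was higher in ureteric bud (1.28%, against 2.18%). That gene was Scnn1g, listed at 0 FPKM in metanephric mesenchyme and at 4.43 FPKM in ureteric bud. The 15 genes at 1 FPKM or more in either tissue had a median difference of -0.73 (range -2.44 to 1.21), and were higher in metanephric mesenchyme in 4 cases and in ureteric bud in 11. All protein-coding genes passing the same limit had a median of -0.48, on the same side. Over the 9180 genes at 1 FPKM or more in each tissue the median was -0.46. With ureteric bud rescaled to remove that shift, 5 of the 15 members were higher in metanephric mesenchyme and 10 in ureteric bud, Slc22a17 being the gene that changed sides.

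The sodium channel subunits were not alike. Scnn1b was also listed at 0 FPKM in metanephric mesenchyme and stood at 2.18 FPKM in ureteric bud, whereas Scnn1a was low in both tissues, at 0.373 FPKM in metanephric mesenchyme and 0.154 FPKM in ureteric bud. All 3 subunits are needed for full channel activity. The beta and gamma subunit genes lie next to each other on chromosome 7 (chr7:121734420-121918728). Their intervals in ureteric bud, for the most abundant transcript, were 2.76 to 4.80 FPKM for Scnn1g and 1.51 to 2.82 FPKM for Scnn1b, above the 0 listed in metanephric mesenchyme. At Scnn1g the H3K4me3 peak was 1191 bp wide in cap mesenchyme and 3515 bp in ureteric epithelium, although H3K4me3 was called in both. At Scnn1b, also higher in ureteric bud, the widths were closer, 1321 bp in cap mesenchyme and 1553 bp in ureteric epithelium.

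Of the other collecting duct genes, Aqp3 was at 0.0243 FPKM in metanephric mesenchyme and 0.745 FPKM in ureteric bud, and Aqp4 at 0.0139 and 0.909 FPKM. Aqp2 and Slc4a9 were listed at 0 in both tissues, and Aqp6 was at 0.0255 FPKM in metanephric mesenchyme and 0.0835 FPKM in ureteric bud. Slc4a1 encodes the anion exchanger AE1 of intercalated cells and of red cells, and was at 0.961 FPKM in metanephric mesenchyme and 0.198 FPKM in ureteric bud. The 7 red cell genes listed, Slc4a1 among them, summed to 4.06 FPKM in metanephric mesenchyme and 0.426 FPKM in ureteric bud, with Hba-a1 and Hba-a2 at 0 in both; their part in the Slc4a1 level was not tested.

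Of the proximal tubule genes Lrp2 alone reached 1 FPKM, at 0.876 FPKM (interval 0.691 to 1.06) in metanephric mesenchyme and 4.08 FPKM (3.55 to 4.61) in ureteric bud. The difference was -1.44 on the log2(FPKM + 1) scale and the intervals did not overlap, but the gene missed the 4-fold rule. Lrp2 is also used by epithelia other than the proximal tubule. Its partner Cubn was at 0.0666 FPKM in metanephric mesenchyme and 0.0195 FPKM in ureteric bud. Slc4a4 was at 0.464 FPKM in metanephric mesenchyme and 0.831 FPKM in ureteric bud, Aqp1 at 0.0711 and 0.0158 FPKM, and Slc5a1 at 0 and 0.0888 FPKM. Slc34a1, Slc34a3, Slc22a6, Slc22a12 and Slc13a1 were listed at 0 in both tissues, and Slc22a2, Slc22a8, Slc5a2 and Slc13a3 lay under 0.1 FPKM in both. Slc12a1 was listed at 0 in both, and Umod and Slc12a3 were at 0.0250 and 0.0145 FPKM in metanephric mesenchyme and listed at 0 in ureteric bud.

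Many of the genes marked in cap mesenchyme had little RNA in the earlier tissues. Among genes under 0.1 FPKM in both tissues, 21 of 48 members carried H3K4me3 in cap mesenchyme (43.8%, against 19.7% of such protein-coding genes) and 8 in ureteric epithelium (16.7%, against 13.3%). At 13 of the 48 it lay in cap mesenchyme but not ureteric epithelium (27.1%, 95% interval 15.3 to 41.8, against 6.73%). The marks were taken at E18.5 in cap mesenchyme and the RNA at E11.5, so stage and population cannot be told apart here.

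Aqp11, the gene of an intracellular aquaporin whose loss causes cystic kidneys in mice, was at 0.140 FPKM (interval 0 to 0.348) in metanephric mesenchyme and 1.76 FPKM (0.958 to 2.57) in ureteric bud, with H3K4me3 in all 3 populations. A transcript on the opposite strand went the other way, at 2.03 FPKM (0.894 to 3.16) in metanephric mesenchyme and 0.613 FPKM (0 to 1.38) in ureteric bud. The libraries were made with a stranded kit, per the labels, and the sense intervals did not overlap while the antisense intervals did.

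H3K4me3 was also counted at 47 tubule genes outside these families, a list chosen with results known. It was present at 27 in cap mesenchyme (57.4%, against 63.6% of all genes), at 20 in ureteric epithelium (42.6%, against 59.7%) and at 22 in ES cells (46.8%, against 67.5%). It lay in cap mesenchyme but not ureteric epithelium at 7 (14.9%, against 4.58%) and the other way at 0 (against 0.681%). The 7 were Slc3a1, which encodes a subunit of the cystine transporter, Slc6a18, a neutral amino acid transporter gene, Dab2, the gene of the adaptor that works with megalin, Amn, the gene of the membrane partner of cubilin, the potassium channel gene Kcnj15, and Slc26a7 and Atp6v0a4. Slc26a7, an anion exchanger gene, and Atp6v0a4, a proton pump subunit gene, are known from intercalated cells of the collecting duct, so the call was not limited to genes of the proximal tubule. Dab2 was the 1 gene of the 47 that was 4-fold higher in metanephric mesenchyme (2.13%, against 0.944% of all genes), at 11.6 FPKM against 0.458 FPKM in ureteric bud. In ureteric bud 3 were 4-fold higher (6.38%, against 2.18%): the sodium pump subunit gene Atp1b1 (0.790 FPKM in metanephric mesenchyme and 13.6 FPKM in ureteric bud), the potassium channel gene Kcnj16 (0.00871 and 9.72 FPKM) and the amino acid transporter gene Slc7a8 (0.216 and 14.8 FPKM). Hsd11b2, whose enzyme keeps cortisol and corticosterone off the mineralocorticoid receptor, was at 5.58 FPKM in metanephric mesenchyme and 6.68 FPKM in ureteric bud, whereas the receptor gene Nr3c2 was at 0.0349 FPKM in metanephric mesenchyme and 0.170 FPKM in ureteric bud.

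Among 14 regulators of tubule genes, a list likewise chosen with results known, 0 were 4-fold higher in metanephric mesenchyme (against 0.944% of all genes) and 6 in ureteric bud (42.9%, against 2.18%). Tfcp2l1, a regulator of collecting duct cells, was at 0.0724 FPKM in metanephric mesenchyme and 17.8 FPKM in ureteric bud, and Gata3 was at 0.529 FPKM in metanephric mesenchyme and 40.8 FPKM in ureteric bud. Tfap2b, Pou3f3 and Lhx1 were also among the 6. At Lhx1 and Pou3f3 the start carried both marks in cap mesenchyme and H3K4me3 only in ureteric epithelium.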

How the data were processed

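Members and gene lists were chosen with earlier results of these data known. Per the submitters' processing notes, ChIP reads were aligned with Bowtie2 and peaks called with MACS, while TopHat, Cufflinks and Cuffdiff were used for the RNA, all on mm10. Per the labels, chromatin was unfixed and digested with micrococcal nuclease. Versions, settings, read depth and each peak list's control are not given in the sources used here. The 6 peak lists were used as deposited by the authors, with the deposited score per peak as a rank within its list. They held 32992 (cap mesenchyme), 23958 (ureteric epithelium) and 67022 (ES cells) H3K4me3 peaks and 108394, 144362 and 12879 H3K27me3 peaks in that order. RNA levels are FPKM deposited by the authors, with Cuffdiff's interval per transcript. Rows were joined to genes by RefSeq accession, antisense transcripts were left out, and transcripts were summed per gene. Read depth is unknown: the product of length in kb and the smallest nonzero FPKM came to 0.0302 (metanephric mesenchyme) and 0.0346 (ureteric bud). Of 350 member transcripts 37 did not have status OK in Cuffdiff. The 3 inputs were not analysed.

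Strand came from the RefSeq promoter table (65 of 79 members) or the locus order of the RNA table (14), which gave the same strand at all 24309 genes with both. For 235 protein-coding genes without strand both ends were used. Genes named in the text were the 26 nephron segment genes, those past the 4-fold rule, those whose marks differed between the kidney populations, those with H3K27me3, the 8 with the highest FPKM per tissue and the 3 with the widest H3K4me3 peak per kidney population. Slc12a9, Aqp11, Slc4a8, the paralog clusters and the related genes were named for the other descriptions. Some genes of these lists are counted but not reported here by name. With 1 sample per group no test was run. Shares carry exact Clopper-Pearson intervals that cover counting error over genes only. The overlap code was tested on simulated peaks. Python 3.11.15, pandas 2.3.3, NumPy 2.4.6, SciPy 1.17.1 and Matplotlib 3.10.9 were used. Alternatives were the window, the score minimum, equal list lengths, the covered share, any annotated start (chosen after seeing the data), the pseudocount, the FPKM minimum, a rescaling of ureteric bud and the top transcript only.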

Additional observations from a re-analysis of the deposited data

How the results depend on the processing

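No paired analysis was possible because each group held 1 sample, and for the same reason no replicate could be left out. Of 67 counts of members recomputed under the alternatives, 56 stayed within 1.5 times the reported count and 11 moved. The 56 include counts that could not change: those of H3K4me3 under the score minimum and the 4-fold counts without an FPKM minimum. H3K4me3 in cap mesenchyme but not ureteric epithelium gave 11 to 14 genes, against 3.4% to 4.94% of all protein-coding genes. Under all 5 alternatives 9 genes kept the call, although the score minimum of 50 removed no H3K4me3 peak. Any annotated start was also a weak check, because at these 9 genes no such start lay more than 0.028 kb from the outermost one. The reverse call gave 1 gene (Slc22a27) with a window of 2.5 kb. At equal list lengths H3K4me3 in ES cells fell to 28 genes, and H3K27me3 to 5 genes (cap mesenchyme) and 6 genes (ureteric epithelium). With at least 50% of the window covered, H3K27me3 was left at 3 (cap mesenchyme), 6 (ureteric epithelium) and 4 (ES cells) genes, and at 0 in cap mesenchyme but not ureteric epithelium. H3K27me3 in ureteric epithelium but not cap mesenchyme gave 2 genes with a window of 0.5 kb and 2 with scores of at least 50. By construction, narrow peaks are lost where 50% of the window must be covered, and equal list lengths remove the lowest-scored peaks of the longer lists. With a pseudocount of 0.1 FPKM, 3 genes were 4-fold higher in ureteric bud (Lrp2, Scnn1b and Scnn1g). Rescaling ureteric bud FPKM by 0.688, which removes the median difference over all genes, left 0 genes 4-fold higher in metanephric mesenchyme. Of 60 gene differences recomputed, 2 changed their 4-fold call (Lrp2 and Scnn1b) and no called one changed sign. Those recomputed without the FPKM minimum could not change, because a difference of 2 on the log2(FPKM + 1) scale already needs more than 2 FPKM. Slc22a17, which was not called, stood at -0.32 and, rescaled, at 0.12.

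Limits apply to every result. Each list or column is 1 sample, the number of reads behind it is unknown, and stage, strain and purity differ between the populations. A start is the outermost annotated one, so inner promoters are missed by the main counts.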

Other observations

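A 188 bp transcript opposite Slc22a17 was listed at 72.0 FPKM (the authors' interval 29.5 to 114.5) in metanephric mesenchyme and 74.4 FPKM (31.0 to 117.8) in ureteric bud, above the gene's own 4.09 and 5.34 FPKM in the same order of tissues. FPKM of so short a transcript rests on few positions, and the intervals are wide. Slc4a5 had a second annotated start 29.8 kb into the gene with H3K4me3 in all 3 populations, and Slc22a15 one 3.8 kb into the gene, although the outermost start of each was unmarked.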
